A study of Mus musculus with 4 samples.

Results

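The 1 Mb stretches of the mouse autosomes that carried almost no called H3K36me3 were described in 2 ChIP-seq libraries of cultured myocytes. H3K36me3 is histone H3 trimethylated at lysine 36. One library came from cells that lack the H19/Igf2 enhancer active in muscle (the enhancer deletion mutant, VV in its title), the other from wild-type cells (WT). Both cultures were of the FVB strain, were grown from muscle of 4-day-old mice over 5 to 10 passages and were differentiated for 24 hours before harvest, with 1 library per genotype. Chromatin was precipitated with the antibody Abcam ab9050. The labels give neither the number of animals behind a culture nor the breeding of the mutant. Each library is represented by a list of islands, the stretches that the authors' peak caller marked as enriched. The 2 input DNA libraries were not analysed here.

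Bins were chosen by their measured cover, the percentage of a bin's length that lies in islands. A bin is called silent here when it was covered under 0.5% in the mutant list and under 0.5% in the wild-type list. The word refers to islands and not to transcription, which was not measured. Of 2405 bins counted on chromosomes 1 to 19, 212 were silent in both lists, or 8.81%. Bins start at position 0 of each chromosome, and the first 3 Mb and the last, partial bin of each were left out. Because cover chose the bins, their low cover is a description and no result rests on it. Each genotype has 1 library, so the spread between replicates is unknown and no p-value is given. Also, adjacent bins are not independent of each other.

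Trimethylation of H3K36 is placed by SETD2, an enzyme that travels with elongating RNA polymerase II, so the mark builds up along the bodies of transcribed genes. It keeps spurious transcription from starting inside genes. Chromosome regions without it are generally poor in genes or hold genes that the cell type does not use. Long gene-poor stretches and clusters of genes used in other tissues, such as odorant and pheromone receptors, are typical of the mouse genome. A bin without islands may lack the mark, or may hold sequence to which reads cannot be placed. These cannot be told apart from the deposited lists. An annotation of the files' build (mm9) was not used, so genes and sequences inside the bins are not given, and the labelled cell type was not checked against marker genes.

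The mutant list held 69798 islands over 297.8 Mb, and the wild-type list 58326 islands over 308.1 Mb. The mean number of reads per 200 bp window, solved from the scores of islands 1 window long, was 3.11 in the mutant library and 2.82 in the wild-type library. The lowest island scores were 22.6 and 30.3 in the mutant and wild-type lists, though scores grow with depth and the lists differ in depth. The median bin was covered to 9.42% in the mutant and 9.16% in the wild type. The lower quartile was 1.72% in the mutant and 1.88% in the wild type. Silent bins thus lay in the lower tail of a wide distribution.

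Many silent bins were empty. Of the 212, 98 held no island base in either list, 34 were empty in the mutant list alone, 19 were empty in the wild-type list alone, and 61 held cover in both. The 212 Mb of silent bins contained 222.4 kb of mutant islands and 310.2 kb of wild-type islands, a mean cover of 0.105% and 0.146%. All counted bins had a mean cover of 12.3% in the mutant and 12.7% in the wild type. The threshold did not fall in a gap of the distribution. In 47 bins the higher of the 2 covers was 0.4% to under 0.5%, and in 41 it was 0.5% to under 0.6%. Several bins were tied on both sides of the threshold. In 9 silent bins the higher cover was 0.48%, among them those on chromosome 3 from 6000001 to 7000000 (0% in the mutant and 0.48% in the wild type, mm9), chromosome 5 from 88000001 to 89000000 (0.48% and 0.34%) and chromosome 7 from 113000001 to 114000000 (0.20% and 0.48%). In 11 bins next above the threshold it was exactly 0.50%, among them those on chromosome 10 from 91000001 to 92000000 (0.30% and 0.50%) and on chromosome 14 from 44000001 to 45000000 (0.14% and 0.50%) and from 95000001 to 96000000 (0% and 0.50%). A silent bin is therefore the low end of a continuum.

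More bins met the threshold in the mutant list than in the wild-type list. Under 0.5% lay 342 bins of the mutant list, or 14.2% of those counted, and 249 of the wild-type list, or 10.4%. The bins silent in both made up 62.0% of the mutant's and 85.1% of the wild type's. The mutant list alone was silent in 130 bins (5.41%), and the wild-type list alone in 37 (1.54%). Most of these were close to the threshold in the other list. Of the 130, the other list was under 1% in 89 and at 2% or more in 9, with a median of 0.76%. Of the 37, it was under 1% in 20 and at 2% or more in 10, with a median of 0.96%. The order of the lists was thus made largely by bins with a few islands.

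The bins silent in 1 list alone were chosen by their cover in both lists. That choice largely set which list had fewer islands there. All counted bins held 28.6 mutant and 23.9 wild-type islands per Mb, with median lengths of 3000 and 3800 bp. Mutant islands were the shorter ones in both sets of bins, as they were in all counted bins. In the 130 bins the mutant list had 1.26 islands per bin, 2000 bp long at the median, and the wild-type list 2.80 per bin with a median of 3200 bp. In the 37 bins silent in the wild type alone, the mutant list had 6.14 islands per bin of 2600 bp and the wild-type list 0.703 of 2800 bp. The part of island length in the excess of bins silent in the mutant alone was not tested. Of the counted bins, 151 held no island base in the mutant list and 131 held none in the wild-type list. By long stretches without any island the lists were nearly alike. Stretches of at least 1 Mb free of islands numbered 249 over 401.2 Mb in the mutant list and 260 over 397.6 Mb in the wild-type list.

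Chromosome 14 contributed to the bins silent in the mutant alone. Past 70 Mb of that chromosome, where the mutant list is sparse (mean cover of the whole chromosome 5.97% in the mutant and 8.87% in the wild type), 18 of 55 bins were silent in the mutant alone, 0 in the wild type alone and 11 in both. Before 70 Mb the counts were 2, 1 and 7 of 67 bins. Without chromosome 14 the mutant list was alone in 110 bins and the wild-type list in 36. The bins with the highest cover in the other list were 3 distal ones on chromosome 14 for the mutant. They spanned 86000001 to 87000000 (0.22% in the mutant and 5.38% in the wild type), 74000001 to 75000000 (0.40% and 4.68%) and 72000001 to 73000000 (0.36% and 4.24%). For the wild type they were on chromosome 5 from 113000001 to 114000000 (18.9% in the mutant and 0% in the wild type), chromosome 4 from 89000001 to 90000000 (6.78% and 0%) and chromosome 12 from 51000001 to 52000000 (5.94% and 0.28%).

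Silent bins were unevenly spread over the chromosomes. Chromosome 12 had the highest share, 19 of 117 bins (16.2%), against 8.81% over all autosomes. It was followed by chromosome 14 (18 of 122, 14.8%), chromosome 1 (27 of 194, 13.9%) and chromosome 7 (20 of 149, 13.4%). These 4 chromosomes held 84 silent bins, 39.6% of the silent bins but 24.2% of those counted. Chromosome 13 had the lowest share, 1 of 117 bins (0.855%), and chromosome 15 was next with 2 of 100 (2.00%). Chromosome 13 also stood low by each list, with 7 bins silent in the mutant and 3 in the wild type. Under a looser limit of 2% in both lists it had 16 low bins (13.7%), where all autosomes had 23.3%.

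A chromosome's mean cover did not by itself fix its silent share. Chromosome 6 had the highest mean cover, 18.0% in the mutant and 18.3% in the wild type, and yet 16 of its 146 bins were silent (10.96%). Chromosome 12 had a mean cover of 10.5% in the mutant and 10.4% in the wild type, and chromosome 13 of 11.9% and 12.8%. They stood at the opposite ends of the order by silent bins. The chromosomes with the highest silent shares (12, 14, 1 and 7) were all low in mean cover. Theirs was 5.97% to 10.8% in the mutant and 8.87% to 10.9% in the wild type. Chromosome 3, at 9.92% and 10.2%, had a silent share of 8.33%. Across the 19 chromosomes the Pearson correlation of silent share with mean cover was -0.46 in the mutant and -0.45 in the wild type, and the Spearman correlation was -0.32 and -0.35. Both quantities come from the same islands, so these values are descriptive.

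**Figure D1:**
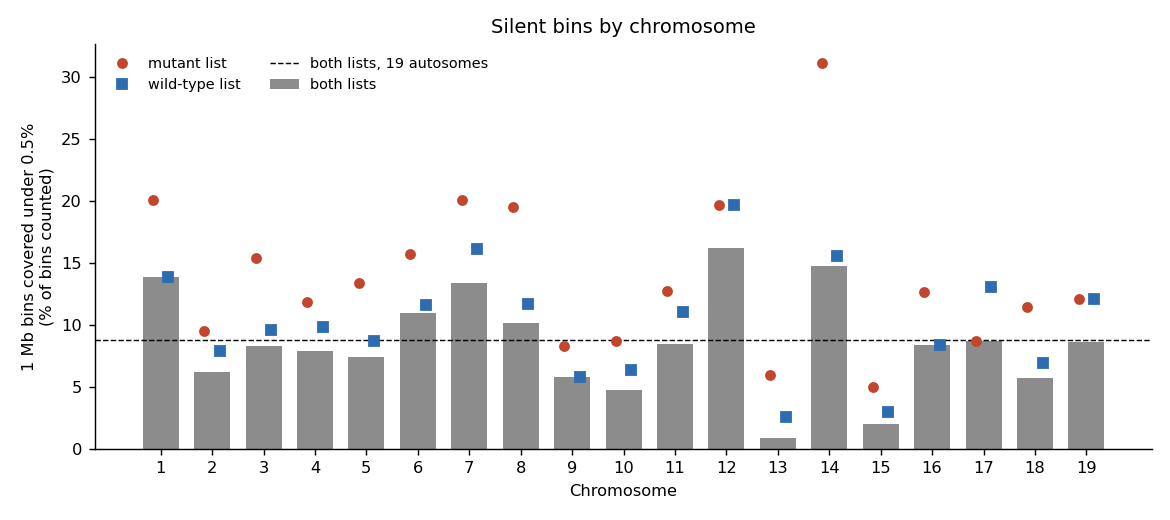
Percentage of the 1 Mb bins of each autosome that were covered under 0.5% in both lists (grey bars), in the mutant list (red circles) and in the wild-type list (blue squares); the dashed line is the 8.81% of all autosomal bins. Chromosomes 12, 14, 1 and 7 stand above the line, chromosomes 13 and 15 lie far under it, and chromosome 14 has the widest gap between the lists.

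Gene number per chromosome, taken from a RefSeq gene table on another build (GRCm38) and used without coordinates, showed little relation to the silent share. Over 19 autosomes and 20665 protein-coding genes, genes per counted bin gave a Pearson correlation of -0.0086 and a Spearman correlation of -0.072. Chromosomes 12 and 18 had the fewest genes per bin, 5.80 and 5.87, but silent shares of 16.2% and 5.75%. Chromosomes 7 and 11 both had 13.6 genes per bin, with silent shares of 13.4% and 8.47%. Gene families were taken as their number per chromosome, not divided by the bins counted, so their values are not on the same measure. By this number, clustered receptor genes of the nose showed little relation to the silent share. Olfactory receptors, which detect odorants, numbered 1104 with a Spearman correlation of 0.040, and the pheromone receptor families Vmn1r and Vmn2r, with 231 and 123 genes, gave 0.11 and 0.19. Chromosome 12 had 0 olfactory receptor genes and the highest silent share, and chromosome 2 had 287 and a share of 6.18%. For 10 other families (keratins Krt, keratin-associated proteins Krtap, beta-defensins Defb, major urinary proteins Mup, alpha interferons Ifna, trace amine receptors Taar, protocadherins Pcdh, Skint, Prame and genes with provisional Gm symbols) the Spearman correlations ran from -0.30 to 0.32 and the Pearson correlations from -0.28 to 0.43. The highest Pearson value was that of the Gm genes. Such counts say how many genes a chromosome has and not whether they lie in the silent bins.

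Along the chromosomes, the silent share stayed near the 8.81% of all counted bins. With the counted part of each chromosome cut into 5 equal stretches from the proximal end, the silent shares were 7.50%, 10.6%, 9.98%, 9.54% and 6.46%. Mouse autosomes have their centromere near the proximal end. Median cover in the last stretch was 12.9% in the mutant and 12.7% in the wild type, and in the first 7.93% and 7.77%. The outer stretches held 36 and 31 silent bins, and the inner ones 46 to 51. This order rests on few bins and was not tested.

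Most silent bins stood alone or in pairs. The 212 bins formed 156 runs of adjacent bins, of which 119 were 1 Mb long, 26 were 2 Mb, 7 were 3 Mb, 1 was 4 Mb, 2 were 5 Mb and 1 was 6 Mb. Runs of 2 Mb or more numbered 37 and held 93 bins (43.9%), and runs of 3 Mb or more numbered 11 and held 41 (19.3%). In the mutant list alone there were 213 runs, the longest 11 Mb, on chromosome 14 from 88000001 to 99000000. The wild-type list had 174 runs, the longest 7 Mb, on chromosome 6 from 74000001 to 81000000. Single bins were sensitive to where the grid starts. With the grid moved by 500 kb, 30.7% of the length of 1 Mb runs was silent again, 62.5% of that of 2 Mb runs and 78.0% of that of longer runs. Some runs were parted by a single bin of higher cover. In 18 places a single bin lay between silent bins, and 8 of these were under 1% in both lists. Their median cover was 0.83% in the mutant and 1.57% in the wild type, and their highest 15.5% and 13.8%.

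Silent bins were often parts of wider stretches of low cover. Of the bins next to a silent bin 26.5% were silent too, of those 2 Mb away 17.7%, of those 5 Mb away 11.8%, and of those 10 Mb away 8.02%, close to the 8.81% of all bins. By the looser limit of 2% in both lists, 54.0% of neighbours were low at 1 Mb and 24.8% at 10 Mb, against 23.3% of all bins. The median silent bin lay in a stretch of 3 Mb under that limit. In such stretches of at least 3 Mb lay 108 silent bins (50.9%), and in those of at least 5 Mb 56 (26.4%). In contrast, 49 silent bins had no neighbour under 2%. Of all bins under 2% in both lists, 45.5% lay in stretches of at least 3 Mb, not far below the share of silent bins. The longest stretches under 2% were 11 Mb long. That on chromosome 1 from 109000001 to 120000000 held 3 silent bins, and that on chromosome 14 from 88000001 to 99000000 held 6, in the part of the chromosome where the mutant list is sparse.

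**Figure D2:**
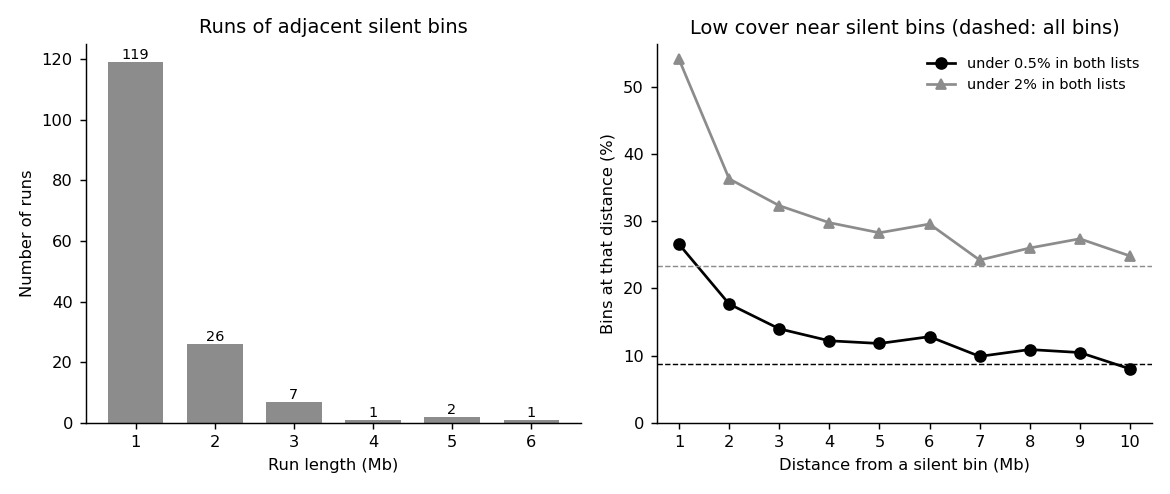
Left, the number of runs of adjacent silent bins by run length in Mb. Right, the percentage of bins at 1 to 10 Mb from a silent bin that were covered under 0.5% (black circles) or under 2% (grey triangles) in both lists; dashed lines give the same shares of all bins, 8.81% and 23.3%, which the curves approach with distance.

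The longest run lay on chromosome 7 from 40000001 to 46000000 and held 0 islands of either list over 6 Mb. It was part of the longest stretch free of islands of both lists, 7655 kb from 39051601 to 46706600. Taken alone, the mutant list was free of islands there over 7656 kb and the wild-type list over 7655 kb, so both lists ended the gap at nearly the same places. The bins beside the run were themselves poor. The proximal one was covered to 1.02% in the mutant and 0.52% in the wild type, and the distal one to 3.52% and 3.78%.

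A 5 Mb run on chromosome 6 from 74000001 to 79000000 held 1 mutant island of 2200 bp, at 78982801, and no wild-type island. The stretch free of islands of both lists spanned 5378 kb there, from 73605001 to 78982800. In the wild-type list alone it was 6598 kb long. This run lay on the most covered autosome. Its proximal neighbour bin was covered to 15.4% in the mutant and 18.7% in the wild type, and its distal neighbour to 0.50% and 0.30%, so that in the mutant it stood exactly at the threshold.

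The proximal side of the chromosome 6 run, singled out after its values were seen, showed how abruptly dense cover could end. In the 100 kb windows from 73300001 to 74000000 no window was covered above 1.20% in the mutant and all were at 0% in the wild type. The next window, from 73200001 to 73300000, was covered to 34.8% in the mutant and 45.8% in the wild type. The following windows, from 73100001 and 73000001, reached 45.4% and 71.2% in the mutant and 54.6% and 86.8% in the wild type. Each further window out to 71800001 was covered to at least 27.6% in both lists. The border of dense cover thus fell within the same 100 kb in both libraries, 700 kb outside the border of the 1 Mb bin.

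Another 5 Mb run, on chromosome 14 from 3000001 to 8000000, began at the edge of the counted part, so its proximal extent is unknown. It held 2 islands in each list, with 4.0 kb in the mutant and 7.2 kb in the wild type, and its distal neighbour was covered to 15.6% in the mutant and 14.6% in the wild type. A 4 Mb run on chromosome 12 from 62000001 to 66000000 held 2 mutant islands (5.6 kb) and 3 wild-type islands (11.6 kb). The bin on its distal side was covered to 12.9% in the mutant and 11.8% in the wild type, and that on its proximal side to 0% and 0.74%. The proximal bin was therefore silent in the mutant list alone.

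The 7 runs of 3 Mb differed in their surroundings. Those on chromosome 1 spanned 100000001 to 103000000 and 124000001 to 127000000. The second was empty in both lists and lay in a free stretch of 3539 kb, between bins covered to 11.5% and 6.44% in the mutant, and 11.6% and 6.64% in wild-type cells. The first held 1 island in each list, with a proximal neighbour of 13.2% in the mutant and 10.6% in the wild type and a distal one of 0.22% and 0.70%. The run on chromosome 17 from 18000001 to 21000000 lay between well covered bins, with 26.2% and 16.3% in the mutant and 26.3% and 13.7% in the wild type. Those on chromosome 14 from 92000001 to 95000000 and from 107000001 to 110000000 lay in poor surroundings, with flanking bins of at most 1.20% in the mutant and 2.74% in the wild type. The remaining runs were on chromosome 11 from 36000001 to 39000000 and on chromosome 12 from 46000001 to 49000000. Each had a bin of 5.58% to 13.7% on the proximal side and of 0.20% to 0.70% on the distal side. Across the 11 runs of 3 Mb or more, islands numbered 0 to 3 per run in the mutant and 0 to 4 in the wild type.

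**Figure D3:**
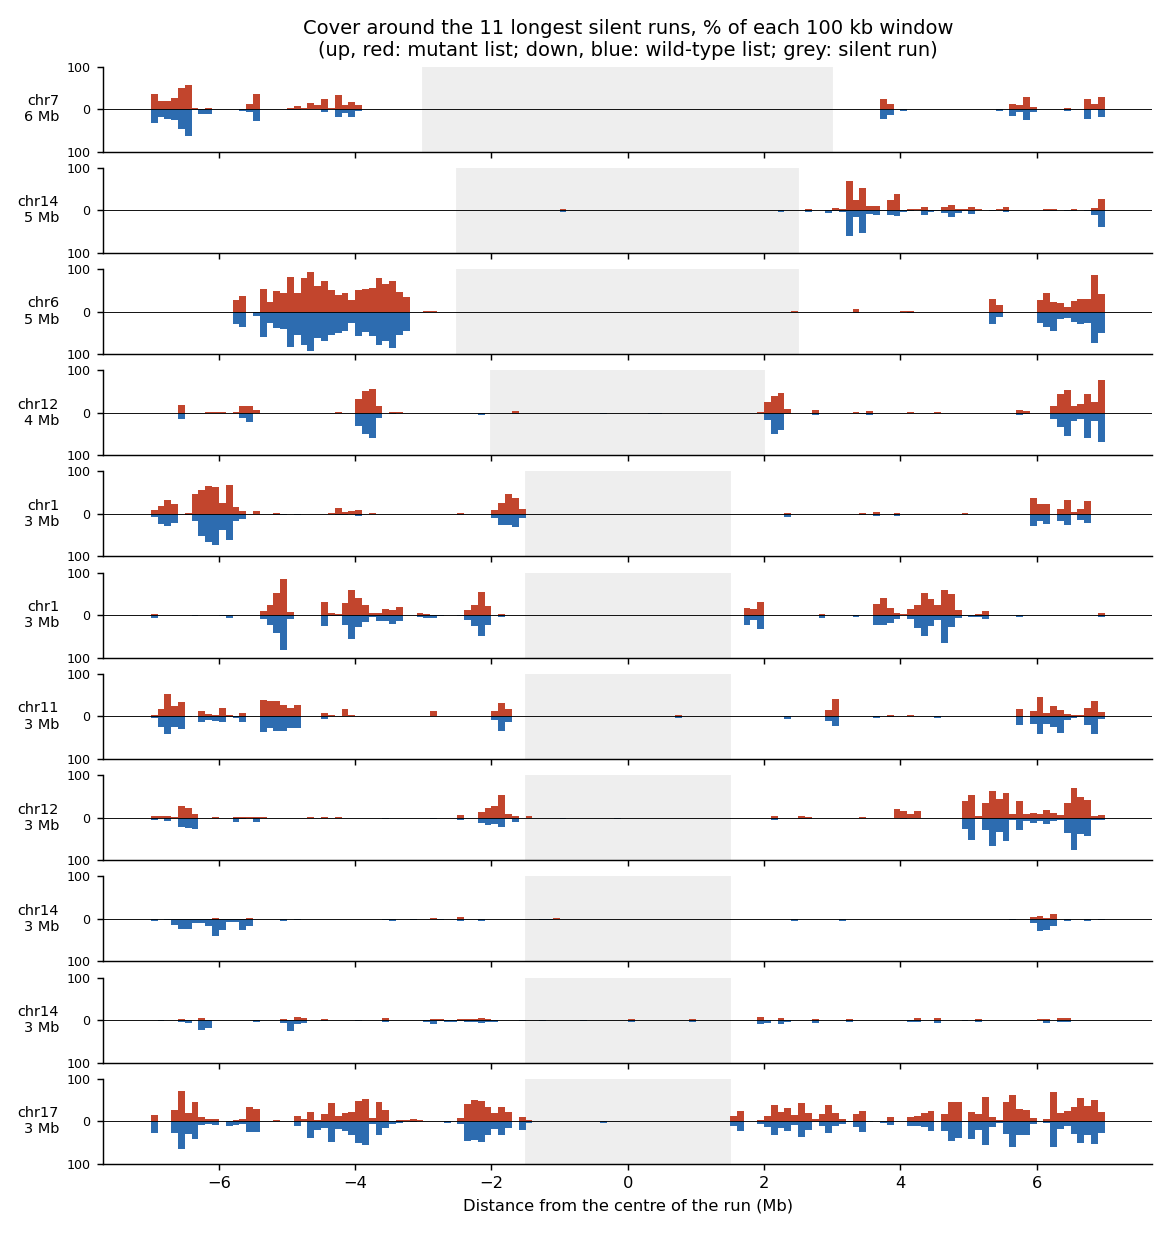
Cover of 100 kb windows by distance in Mb from the centre of each of the 11 longest silent runs, with the mutant list drawn upward in red and the wild-type list downward in blue, each as a percentage of the window; the grey band is the run, and a row is blank where the chromosome ends. The chromosome 6 run ends against a dense block of cover on its left side, and the 3 Mb run of chromosome 17 has cover on both sides, whereas the windows in the lower 2 rows of chromosome 14 reach at most 11.8% and 8.20% in the mutant and 41.4% and 26.6% in the wild type.

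Stretches free of islands of both lists gave a measure that does not depend on the bin grid. There were 191 of at least 1 Mb, over 292.4 Mb in all, and 27 of at least 2 Mb, where the median gap between neighbouring islands was 4.60 kb. After those on chromosomes 7 and 6 the longest were on chromosome 10 (3708 kb, 100285601 to 103993400), chromosome 1 (3539 kb, 123678001 to 127217400) and chromosome 1 again (3207 kb, 100667601 to 103874800). Of the length of silent bins 69.4% lay in such stretches, and of the length of the stretches 50.3% lay in silent bins. Of all 2405 counted bins 8.81% were silent. Both sets are defined by a lack of the same islands, so this overlap is largely set by the definitions.

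The few islands inside the silent bins were short and of low score. Each list had 105, or 0.495 per Mb, against 31.4 mutant and 26.2 wild-type islands per Mb in the other counted bins. Of the silent bins, 56 held 1 mutant island, 23 held 2 and 1 held 3, while 85 held 1 wild-type island and 10 held 2. The median mutant island inside was 2000 bp long (quartiles 1600 and 2800 bp), the median wild-type island 3000 bp (quartiles 2200 and 4000 bp). Outside, mutant islands had a median of 3000 bp and wild-type islands of 3800 bp. The threshold allows at most 5 kb of islands in a bin, so long islands could not appear except across a border. At 5 kb or more were 2 mutant islands (1.90%) and 1 wild-type island (0.952%) inside, and 25.4% and 36.0% of those in the other bins. The median length in the mutant was below that in the wild type inside and outside the silent bins.

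**Figure D4:**
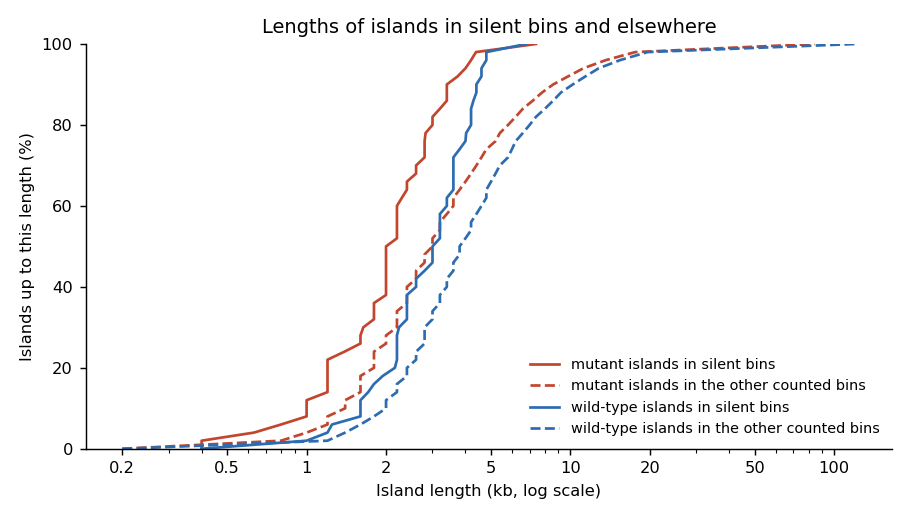
Cumulative percentage of islands up to a given length (kb, log scale) for mutant (red) and wild-type (blue) islands that overlap silent bins (solid lines, 105 islands in each list) and islands of the other counted bins (dashed lines). The solid lines lie to the left of the dashed line of the same list, and they end at 7400 bp in the mutant and 6800 bp in the wild type.

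Scores per window, in which the score is divided by the number of windows, were also lower inside. They can still vary with length. An island score sums, over the windows of the island, how unlikely each window's read count is at the mean depth. The median score per 200 bp window was 3.08 inside and 3.96 in the other bins in the mutant list, and 2.94 and 3.62 in the wild-type list. When each list was cut into 10 equal groups by score, 48 of the 105 mutant islands (45.7%) and 46 of the 105 wild-type islands (43.8%) fell in the lowest 2 groups. Only 4 in each list fell in the highest 3. Scores rise with length, and the rule held length down, so this order of the groups is partly fixed by the choice of bins.

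Islands in silent bins had a partner in the other library less often than islands at large. By an overlap of at least 1 bp, 43 of 105 had one in each list, 41.0% (exact binomial 95% interval 31.5% to 51.0%, counting error only). Of all islands in counted bins 74.4% of mutant and 82.2% of wild-type islands had one. Within the lowest group by score, 6 of 24 mutant islands inside (25%) and 7 of 32 wild-type islands inside (21.9%) had a partner, against 41.6% and 55.3% of all islands of that group. Both lists were required to be low, which lowers the number of possible partners, so nothing about the libraries is read from these shares. The lists shared 90.8 kb of the 441.8 kb covered in either inside silent bins (20.6%), and 58.1% over all counted bins.

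A few islands inside were unlike the rest. The highest score in both lists lay at the same place on chromosome 6. The mutant island spanned 103599001 to 103599400, only 400 bp, with a score of 738 or 369 per window. The wild-type island spanned 103597801 to 103599400 with a score of 677 or 84.6 per window. The second was at 68160001 to 68161000 on chromosome 12 in both lists, with scores of 331 in the mutant and 288 in the wild type and 66.2 and 57.7 per window. The next highest score per window among the islands inside was 16.0, for a wild-type island on chromosome 5. The input libraries at these places were not analysed here.

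The next islands by score had ordinary heights. In the mutant they were at 96995801 to 97000800 on chromosome 9 (score 131, 5.25 per window), at 88996401 to 89003800 on chromosome 5 (100.3, 2.71 per window) and at 115807801 to 115811200 on chromosome 8 (65.8). In the wild type they were at 17998001 to 18004800 on chromosome 17 (124, 3.66 per window), at 88996601 to 89001200 on chromosome 5 (102) and at 64461601 to 64465800 on chromosome 3 (86.2). The islands of chromosomes 5, 9 and 17 reached past a bin border. The partner of the chromosome 5 island covered 83.8% of it in the wild type, and that of the chromosome 9 island 88.0%.

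The longest islands inside were in part the same ones. In the mutant these were the chromosome 5 island of 7400 bp, the chromosome 9 island of 5000 bp, an island of 4400 bp on chromosome 3 (64461801 to 64466200) and 3 islands of 4200 bp, on chromosomes 14 (40546201 to 40550400), 3 (17854801 to 17859000) and 7 (124480201 to 124484400). In the wild type they were the chromosome 17 island of 6800 bp and 5 islands of 4800 bp. Of these, those on chromosome 12 (116819201 to 116824000) and chromosome 3 (6054401 to 6059200) had no base covered in the mutant. Those on chromosome 14 (108569001 to 108573800 and 109454001 to 109458800) were each covered to 58.3% in the mutant, and that on chromosome 7 (113453401 to 113458200) to 41.7%.

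The share of islands near the ends of a run was not far above the share of silent length there. Within 200 kb of a run border were 41 of 105 mutant islands (39.0%) and 36 of 105 wild-type islands (34.3%), where 29.4% of the silent length lies that close. This difference was not tested. In all, 5 mutant and 3 wild-type islands crossed a border. In 100 kb windows the mean cover just inside the border was 0.198% in the mutant and 0.256% in the wild type. In the next window inward, the lowest of all, it was 0.0619% and 0.0858%. Further inward, out to 1000 kb, it ran from 0.0806% to 0.156% in the mutant and from 0.0948% to 0.199% in the wild type.

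The edges of runs were gradual on average and varied widely. The 156 runs had 310 ends with a counted bin beside them. The neighbouring bin had a median cover of 3.02% in the mutant (quartiles 0.705% and 10.2%) and 3.03% in the wild type (0.960% and 9.43%), where all bins had medians of 9.42% and 9.16%. The second bin outward had medians of 7% and 6.11%, the third 8.50% and 8%, and the fifth 10.0% and 10.2%. Cover of 10% or more was found in the neighbouring bin at 80 ends in the mutant (25.8%) and 75 in the wild type (24.2%), against 48.6% and 48.2% of all bins. In both lists it was found at 70 ends (22.6%), against 45.9% of all bins. At the other extreme, 91 ends (29.4%) bordered a bin whose mean of the 2 covers was under 1%, a class of 17.9% of all bins. By the rule, the first bin outward has 0.5% or more in at least one list and cannot be silent.

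Cover on both sides of a run was also counted together. Of 154 runs with a counted bin on each side, 9 had 10% or more in both lists on both sides, 51 on 1 side and 94 on neither. Taken singly, 22.6% of ends had such a neighbour, against 45.9% of all bins. Pairs of bins around other places were not counted, so the 9 runs have no share to stand beside. In 24 runs the bins on both sides were under 2% in both lists. The densest neighbours were on the left of runs on chromosome 9 at 97000000 (41.0% in the mutant and 36.9% in the wild type) and at 68000000 (35.5% and 38.3%), and of a run on chromosome 4 at 127000000 (32.7% and 34.5%). A run on chromosome 8 that ended at 23000000 (32.0% and 30.02%) and one on chromosome 6 that began after 9000000 (32.0% and 29.2%) came next. The lowest value that the rule allows, 0.50% in the higher list, was found at 7 ends. Among these were ends of runs on chromosome 19 that ended at 50000000 and began after 51000000 (both 0.50% and 0.24%), on chromosome 6 at 79000000 and 80000000 (both 0.50% and 0.30%), on chromosome 3 at 73000000 (0.18% and 0.50%) and on chromosome 14 at 95000000 (0% and 0.50%). In the chromosome 19 and chromosome 6 cases the same single bin lay between 2 runs.

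Seen in 100 kb windows from the bin border outward, mean cover climbed over about 1 Mb. It was 1.73% in the mutant and 1.59% in the wild type in the first 100 kb, 6.97% and 6.92% from 400 to 500 kb, and 10.2% and 10.3% from 900 to 1000 kb. All 100 kb windows had a mean of 12.3% in the mutant and 12.7% in the wild type. The slope is partly set by the grid, since a border at a round position can lie anywhere within the gap. The first island outward lay at a median of 288.9 kb in the mutant (quartiles 122.7 and 536.8 kb) and 261.8 kb in the wild type (120.9 and 508.7 kb). The first island of at least 5 kb lay at 762 kb and 592 kb.

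Mean cover was also measured from the islands that end a free stretch of at least 1 Mb. It dropped after the first 100 kb and then changed little out to 1 Mb. The first 100 kb had a mean cover of 12.6% in the mutant and 12.8% in the wild type, which includes the island that ends the stretch. The next 100 kb had 8.82% and 8.50%, and the means stayed between 8.50% and 9.82% out to 1 Mb. From 1900 to 2000 kb they were 12.4% in the mutant and 12.5% in the wild type. Medians were 0% in both lists from 100 to 1500 kb, so the means were carried by a minority of ends. In both lists 112 of the 382 ends (29.3%) had 10% or more in the first 100 kb, against 31.3% of all 100 kb windows. The median distance to the first such window was 500 kb, with quartiles of 0 and 1700 kb over 380 ends. The first island had a median length of 3200 bp and was 5 kb or longer at 97 ends (25.4%).

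**Figure D5:**
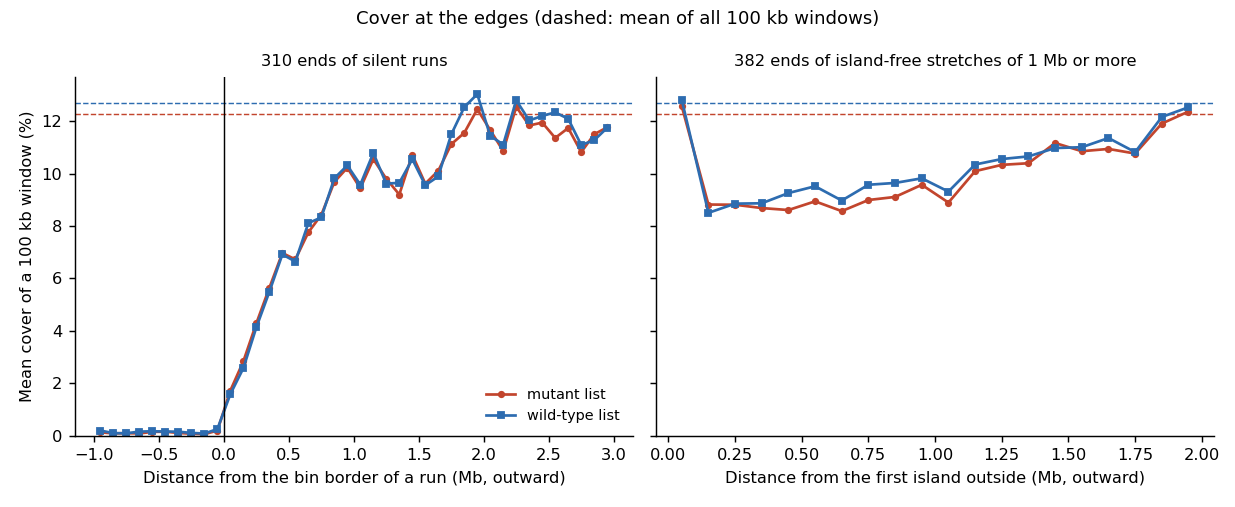
Mean cover of 100 kb windows in the mutant list (red circles) and the wild-type list (blue squares). Left, by distance in Mb from the bin border at the 310 ends of silent runs, negative inside the run; right, by distance from the first island at the 382 ends of stretches of at least 1 Mb free of islands of both lists. Dashed lines are the means of all 100 kb windows, 12.3% and 12.7%; on the left cover climbs over about 1 Mb, and on the right it drops after the first window and rises slowly.

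At part of the edges the 2 libraries had their first island at nearly the same place. The first island outward of a run border differed by at most 1 kb between lists at 126 of 310 ends (40.6%), by at most 10 kb at 189 (61.0%) and by at most 100 kb at 225 (72.6%). It was nearer in the mutant at 123 ends and in the wild type at 154, and at the same place at 33. At the ends of free stretches both lists had an island within 2 kb of the end in 159 of 382 cases (41.6%). At the remaining ends only 1 list had an island that close. Such distances were not computed for islands at large. By the other measure, an overlap of at least 1 bp, 74.4% of mutant and 82.2% of wild-type islands in counted bins had a partner.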

How the data were processed

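Per the submitters' processing notes, Bowtie 1.0.0 and SICER 1.1 were used with mm9. Windows of 200 bp and a 600 bp gap are read from the names of the deposited lists. Use of the input libraries and removal of duplicate reads are not given in the sources used here. Each deposited list holds chromosome, start, end and the authors' island score, which grows with depth and length and was compared within a list, apart from the lowest scores and 1 setting that carries a score limit from one list to the other. One list per library was deposited, so nothing was pooled.

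Cover was computed on 200 bp windows in Python 3.11.15 with scipy 1.17.1, numpy 2.4.6 and pandas 2.3.3, and drawn with matplotlib 3.10.9. The last bin of a chromosome was the one holding the last island of either list. A run is a set of adjacent silent bins. Islands inside overlap a silent bin by at least 1 bp. Coordinates are counted from 1. The files give no read totals, and depth was solved from the Poisson scores of 14 mutant and 8 wild-type islands of 1 window. The scripts were tested on simulated data.

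Named regions follow a rule: the 10 longest runs with ties, the 5 longest free stretches, the 5 islands of highest score and the 5 longest inside each list with ties, the 3 bins on each side of the threshold, the 3 bins silent in 1 list with the highest cover in the other, and the 5 ends with the highest and lowest flanks. The bins, the limits and the lists were chosen with earlier results of these data known. Alternatives were 13 planned and 2 added settings.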

Additional observations from a re-analysis of the deposited data

How the results depend on the processing

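The mutant list had more bins silent alone than the wild-type list in each of the 14 settings that gave this value. All settings use the same 2 libraries, so they are not independent of each other. The score limit removes islands from the mutant list only, so it could only widen this difference. With no island allowed, 0.25%, 1% or 2% as the threshold, 4.07%, 5.28%, 15.2% and 23.3% of bins were silent in both lists. With bins of 500 kb it was 15.2%, with bins of 2 Mb 4.80%, and with only the better-scoring 50% of either list 16.6%. The excess of the mutant alone over the wild type alone was 3.87 percentage points, and 0.832 with no island allowed, 2.41 at 0.25%, 0.457 at 2%, 1.94 with 2 Mb bins and 6.74 when mutant islands scored at least as high as the lowest wild-type island. The last setting, and that without distal chromosome 14, were chosen after seeing the data, and scores of lists of unequal depth are not on 1 scale. The longest run was 11 Mb at 2% and 6 or 7 Mb otherwise. In the mutant, 18.2% of islands inside had a partner at 0.25%, 52.2% at 1%, 54.7% at 2%, 21.9% with 500 kb bins, 60.6% with 2 Mb bins and 56.9% with the score limit. In the wild type it was 23.5%, 52.0% and 57.6% at the 3 thresholds and 51.9% with 2 Mb bins. The median neighbour bin was covered to 5.39% in the mutant and 4.92% in the wild type at 1%, and to 7.96% and 8.04% at 2%. The cause was not tested, apart from the settings' own construction.

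Which bins are silent depends on the grid. With the grid moved by 500 kb, 210 Mb were silent, of which 48.1% were silent on the main grid. Of the silent length in runs of 1 Mb 30.7% stayed silent, in runs of 2 Mb 62.5%, and in runs of 3 Mb or more 78.0%. No paired analysis was possible because each genotype has 1 library, and leaving out a library leaves none of its genotype. Edge values were not run for other bin sizes. Enrichment below the lowest deposited scores, 22.6 in the mutant and 30.3 in the wild type, gives no island.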

Other observations

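Chromosome X, which the rule leaves out, had many more bins of this kind than the autosomes. Of its 163 bins counted in the same way, 61 (37.4%) were covered under 0.5% in both lists, 85 (52.1%) in the mutant and 74 (45.4%) in the wild type. The autosomal shares were 8.81% in both lists, 14.2% in the mutant and 10.4% in the wild type. The labels do not give the sex of the cultures, and chromosome number per cell was not measured.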
